A study of Homo sapiens with 6 samples.

Results

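The 31 genes analysed here encode the glucose transporter SLC2A1, the enzymes of glycolysis, the PFKFB enzymes, lactate dehydrogenase, the pyruvate dehydrogenase kinases and enzymes of the pentose phosphate pathway. They were chosen by name as a pathway list, without a threshold on any measured value but with earlier results of these data known. All 31 were found by symbol among the 22807 genes of the table. Of these, 29 passed the filter on low values, a mean normalized value of at least 1 over all libraries, as did 12862 genes in all. *LDHB* and *PDK4* did not pass it, with 0 to 2 reads per library.

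MDA-MB-453 is an established line of HER2+ breast cancer. Its RNA was sequenced in 6 libraries, 3 from cells transfected with *DUSP6* siRNA and 3 from cells that received scrambled control siRNA. *DUSP6* encodes a phosphatase that removes phosphate from the MAP kinase ERK, and the libraries were made to profile transcription in cells depleted of it. The siRNAs within a group differ in sequence, but their assignment to the libraries is not known here. The labels do not tell whether the libraries of a group came from separate cultures, so the p-values measure only the spread between these libraries. In that spread, differences of siRNA sequence and of culture cannot be told apart. All libraries came from 1 cell line grown in RPMI medium with fetal bovine serum, and both groups went through transfection. The time from transfection to harvest was not given in the sources used here.

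Glycolysis splits glucose into pyruvate in the cytosol, with phosphofructokinase and pyruvate kinase among its regulated steps, and lactate dehydrogenase turns pyruvate into lactate. Pyruvate dehydrogenase kinases switch off the enzyme complex that passes pyruvate on to the mitochondrial citric acid cycle. The pentose phosphate pathway leaves glycolysis after the hexokinase step and yields NADPH and ribose. Many cancer cells run glycolysis at a high rate even when oxygen is present, and transcription of these genes is known to respond to the factors HIF1A and MYC.

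The 6 libraries held 45546981 to 85729785 reads, so 1 read was worth a normalized value of 0.0121 to 0.0202. Among the 29 tested pathway genes the fewest reads in a library were 146, for *ALDOC*, where counting error limits the precision. *DUSP6* fell from 144 ± 55.7 to 33.0 ± 7.68 (mean ± SD, n = 3 each), a log2 fold change of -2.05 (standard error, SE, 0.25, adjusted p = 3.09e-04 by limma). All 9 markers of luminal apocrine epithelium were detected, 7 of them lower and 1 higher with *DUSP6* siRNA. Of 7 markers of leukocytes, fibroblasts and endothelium, *CD3E* was not found in the table, *PTPRC*, *COL3A1*, *PECAM1* and *VWF* lay below the filter, *CD68* had values of 3.41 to 5.47, and *COL1A1* had 80.7 to 105 with scrambled and 162 to 192 with *DUSP6* siRNA. For comparison, 24.7% of all genes tested were lower and 19.7% higher. All 6 interferon-stimulated genes listed rose, with log2 fold changes of 1.22 to 7.56, and 5 of 6 proliferation genes fell. The part of these changes in the results below was not tested. Fold changes are given as the *DUSP6* siRNA mean minus the scrambled siRNA mean of log2(normalized value + 1), so a negative value means lower after *DUSP6* siRNA, and the added 1 makes changes of low genes look smaller. Calls were made at a limma p under 0.05 after adjustment over all genes tested.

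With *DUSP6* siRNA, 12 of the 29 tested genes of these pathways fell, 2 rose and 15 were not called. The genes that fell were *PKM*, *PDK3*, *PFKP*, *PFKFB3*, *GAPDH*, *PDK2*, *ALDOA*, *PGK1*, *HK1*, *PGD*, *PFKFB4* and *PDK1*, and those that rose were *PFKFB2* and *PGLS*. Across all genes tested, 24.7% fell and 19.7% rose. The median log2 fold change was -0.23 for the 29 genes and -0.01 for all genes. After quantile normalization, which forces all libraries to 1 distribution of values, 10 of the 29 genes were lower and 4 higher, and over all genes tested 2887 were lower and 2958 higher, against 3179 and 2540 before. Genes with high values fell more often than others in these libraries. Of the 904 genes whose mean value reached 200, a limit set after the values were seen, 41.6% fell, 7.85% rose and the median log2 fold change was -0.20. Among the 14 pathway genes above this limit, 6 fell, 0 rose and the median was -0.32, so the share that fell was close to that of other abundant genes.

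**Figure D1:**
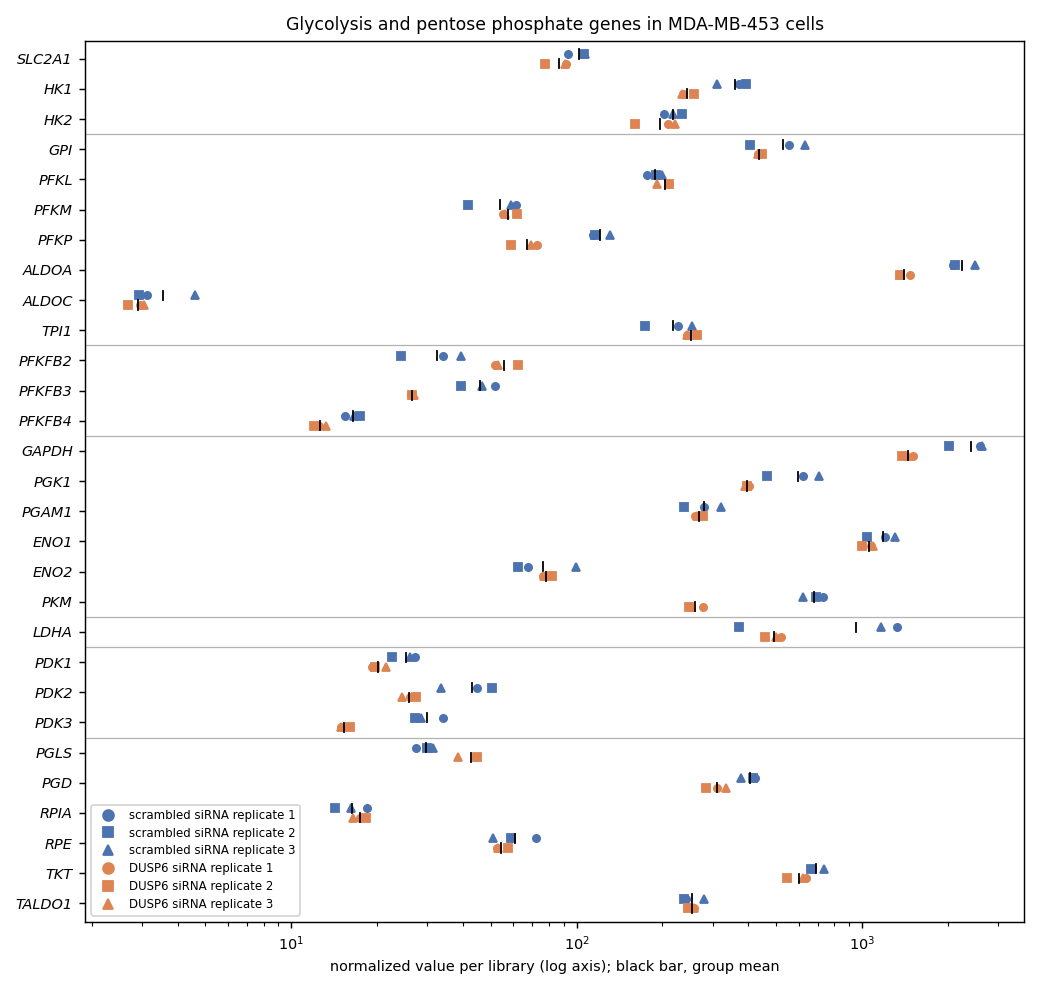
Normalized value of the 29 tested genes in each of the 6 libraries, on a log axis, with black bars at the group means and grey lines between pathway roles. The 3 *DUSP6* siRNA libraries lie below all 3 scrambled siRNA libraries for 14 genes and above them for *PFKFB2* and *PGLS*, and *LDHA* was lowest in scrambled siRNA replicate 2.

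The libraries of the groups did not overlap for 16 of the 29 genes, with 14 lower and 2 higher, whereas 31.1% of all genes tested were lower and 26.7% higher without overlap. *SLC2A1* and *TKT* were lower without overlap but missed the threshold. Summed over the 31 genes, the values were 12383, 10274 and 12954 in replicates 1 to 3 of scrambled siRNA and 8630, 8117 and 8424 in those of *DUSP6* siRNA. The sum was therefore lower in every *DUSP6* siRNA library, with a difference of -29.3% between the means, and its share of all normalized values went from 1.10% to 0.909%. The values are relative to the other RNA of a library and do not measure RNA per cell. With RNA pooled from many cells, fewer expressing cells and a lower share of the RNA in each cell cannot be told apart.

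To set levels of different genes side by side, values were divided by the length of the MANE transcript in kilobases. On this scale the highest scrambled siRNA mean was that of *GAPDH* (1880 ± 268 per kilobase, SD, n = 3), followed by *ALDOA* with 1364 ± 140 per kilobase and *ENO1* with 665 ± 74.7 per kilobase. *LDHA*, *PKM*, *TKT*, *TALDO1* and *PGD* came next, at 426, 296, 231, 211 and 178 per kilobase. The *LDHA* level had an SD of 228 per kilobase, so that its place among these neighbours was not resolved, and *TKT* and *TALDO1* lay within their combined spread. The lowest tested genes were *ALDOC* with 2.21 per kilobase and *PDK1* with 1.79 per kilobase. The place of *PDK1* rests on a MANE transcript of 14072 bases.

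Glucose enters these cells through transporters of which SLC2A1, also called GLUT1, is the widespread form, and hexokinases trap it by phosphorylation. *SLC2A1* had values of 93.0, 106 and 107 in replicates 1 to 3 of scrambled siRNA and 91.6, 77.5 and 91.0 in those of *DUSP6* siRNA. The groups lay next to each other without overlap, and the log2 fold change of -0.23 (95% interval -0.47 to -0.0018) was not called (adjusted p = 0.0925 by limma). *HK1*, the widely expressed hexokinase, had values of 372, 394 and 311 with scrambled and 236, 259 and 235 with *DUSP6* siRNA. It was lower in every *DUSP6* siRNA library and fell by 0.55 on the log2 scale (SE 0.11, adjusted p = 0.00333 by limma). *HK2*, the form often induced in tumors, had means of 218 ± 15.3 and 196 ± 32.3 (SD, n = 3 each) and was not called, with a log2 fold change of -0.16 and a 95% interval of -0.45 to 0.13. Per length, *HK1* made up 71.9% ± 2.64 of the *HK1* and *HK2* signal with scrambled and 66.0% ± 4.97 with *DUSP6* siRNA, and the groups overlapped.

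In upper glycolysis, which turns the sugar phosphate into triose phosphates, 2 of 7 genes fell and 5 were not called, whereas 24.7% of all genes tested fell. *PFKP*, the platelet form of phosphofructokinase, is at 3067548 to 3136805 on chromosome 10 of GRCh38. Its values were 114, 116 and 131 in replicates 1 to 3 of scrambled siRNA and 72.5, 59.0 and 69.1 in those of *DUSP6* siRNA. All *DUSP6* siRNA libraries were far below the scrambled siRNA libraries, and the log2 fold change was -0.84 (SE 0.11, adjusted p = 3.59e-04 by limma). The liver form *PFKL* had means of 189 ± 11.6 and 205 ± 11.1 (SD, n = 3 each) and the muscle form *PFKM* of 54.1 ± 10.8 and 57.6 ± 3.62, and neither was called. The log2 fold change of *PFKL* was 0.12 (95% interval -0.08 to 0.32) and that of *PFKM* 0.11 (-0.22 to 0.44). Exons of *SENP1* cover 7.12% of those of *PFKM*, so its value is uncertain.

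The makeup of the phosphofructokinase transcripts differed between the groups. Per length, *PFKP* was 35.0%, 36.1% and 36.2% of the sum of the 3 forms with scrambled and 23.4%, 19.5% and 23.8% with *DUSP6* siRNA. *PFKL* was 49.0%, 53.0% and 49.9% with scrambled and 61.5%, 63.1% and 59.8% with *DUSP6* siRNA, so that neither share overlapped between the groups. The share of *PFKM*, 13.6% ± 2.53 and 16.3% ± 1.13 (SD, n = 3 each), did overlap. The log2 ratio of *PFKP* to *PFKL* differed by -0.97 between the groups (p = 0.1 by a two-sided exact permutation test, which cannot go lower with 3 libraries a group, and adjusted p = 0.2 over the 10 ratios tested).

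*ALDOA*, the main aldolase of muscle and of most tumor cells, had values of 2091, 2119 and 2501 with scrambled and 1479, 1365 and 1366 with *DUSP6* siRNA. It was lower in every *DUSP6* siRNA library, with a log2 fold change of -0.67 (SE 0.11, adjusted p = 0.00161 by limma). The brain form *ALDOC* was low, with values of 2.68 to 4.60 over the 6 libraries, and was not called at a log2 fold change of -0.21 (95% interval -0.54 to 0.13). It made up 0.16% of the aldolase signal per length with scrambled and 0.210% with *DUSP6* siRNA, without overlap, and the log2 ratio of *ALDOC* to *ALDOA* differed by 0.40 (exact permutation p = 0.1, adjusted p = 0.2). *GPI*, which interconverts the phosphates of glucose and fructose, had values of 555, 405 and 633 with scrambled and 433, 446 and 431 with *DUSP6* siRNA. Scrambled siRNA replicate 2 lay below all *DUSP6* siRNA libraries, and *GPI* was not called (log2 fold change -0.26, 95% interval -0.60 to 0.08), whereas without that library it fell by 0.44 on the log2 scale (adjusted p = 0.0089 by limma). Without scrambled siRNA replicate 3 *GPI* was at -0.12 (adjusted p = 0.454 by limma) and under quantile normalization at -0.02, not called in either. *TPI1*, which interconverts the triose phosphates, had values of 226, 174 and 254 with scrambled and 243, 265 and 245 with *DUSP6* siRNA and was not called at 0.22 (95% interval -0.09 to 0.52). Without scrambled siRNA replicate 3, its highest control, *TPI1* was called higher at 0.34 (adjusted p = 0.0404 by limma), whereas without replicate 2, its lowest control, it was at 0.0648 and not called (adjusted p = 0.597 by limma).

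Of the 10 ratios of related genes, the one that differed most was among the PFKFB enzymes, which make and degrade the sugar bisphosphate that activates phosphofructokinase. *PFKFB2*, the heart form, lies on chromosome 1 from 207034416 to 207081027 and had values of 33.9, 24.1 and 39.3 in replicates 1 to 3 of scrambled siRNA and 51.6, 62.1 and 52.9 in those of *DUSP6* siRNA. Every *DUSP6* siRNA library was above every scrambled siRNA library, and it rose by a log2 fold change of 0.78 (SE 0.17, adjusted p = 0.00547 by limma), the larger of the 2 increases among the 29 genes.

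*PFKFB3*, the form with high kinase activity that proliferating cells use, lies on chromosome 10 from 6144921 to 6326637. Its values were 51.6, 39.2 and 46.6 with scrambled and 26.3, 26.4 and 26.9 with *DUSP6* siRNA. The *DUSP6* siRNA libraries were nearly equal and all below the scrambled siRNA libraries, with a log2 fold change of -0.76 (SE 0.11, adjusted p = 8.97e-04 by limma). *PFKFB4*, the testis form also found in tumors, had values of 15.4, 17.5 and 16.6 with scrambled and 12.5, 12.0 and 13.3 with *DUSP6* siRNA. It fell by 0.36 on the log2 scale (adjusted p = 0.0187 by limma), a call that was lost on leaving out *DUSP6* siRNA replicate 1, 2 or 3 (adjusted p = 0.0738, 0.0731 and 0.0547).

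The sum of the normalized values of the 3 PFKFB genes was nearly the same in both groups, 94.8 ± 12.1 and 94.6 ± 5.26 (SD, n = 3 each). This sum was not divided by length, so it gives more weight to the long *PFKFB2* transcript and does not show an equal total per length. Mean values per kilobase went from 4.59 to 7.85 for *PFKFB2*, from 10.2 to 5.92 for *PFKFB3* and from 4.71 to 3.60 for *PFKFB4*. The makeup of the family differed between the groups. Per length, *PFKFB2* went from 23.3% ± 3.49 of the family to 45.1% ± 2.93, and *PFKFB3* from 52.3% ± 2.87 to 34.1% ± 1.37, both without overlap. *PFKFB3* was the leading form in each scrambled siRNA library and *PFKFB2* in each *DUSP6* siRNA library. The log2 ratio of *PFKFB3* to *PFKFB2* was 0.60, 0.70 and 0.24 with scrambled and -0.97, -1.23 and -0.98 with *DUSP6* siRNA, a difference of -1.58 (exact permutation p = 0.1, adjusted p = 0.2). Between fits that left out 1 library it ranged from -1.71 to -1.49.

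**Figure D2:**
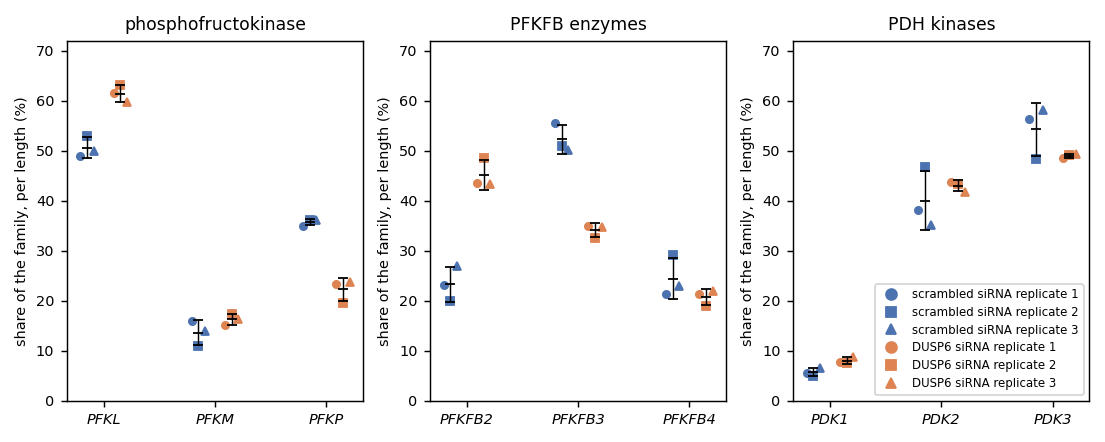
Share of each form in the phosphofructokinase, PFKFB and pyruvate dehydrogenase kinase (PDH kinase) families in percent of the family's value per transcript length, by library, with bars for the mean and SD of 3 libraries. *PFKFB2* and *PFKFB3* change places between the groups, *PFKP* is lower in all 3 *DUSP6* siRNA libraries, and the shares of *PDK2* and *PDK3* overlap.

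In lower glycolysis, which carries the steps that yield ATP, 3 of 6 genes fell and 3 were not called. Among all genes tested 24.7% fell, as did 41.6% of those with a mean value of at least 200. *PKM* encodes the pyruvate kinase of the last step, and lies on chromosome 15 from 72199029 to 72231591. Its values were 730, 693 and 623 in replicates 1 to 3 of scrambled siRNA and 278, 248 and 253 in those of *DUSP6* siRNA. No *DUSP6* siRNA library came near the lowest scrambled siRNA library, and the means differed by -61.9%. The log2 fold change of -1.39 (SE 0.10, 95% interval -1.61 to -1.17, adjusted p = 1.65e-05 by limma) was the largest change among the 29 genes, and 1.64% of all genes tested had a lower one. The table holds 1 value per gene, so the M1 and M2 forms of *PKM* could not be separated.

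*GAPDH*, the dehydrogenase that yields the NADH of the pathway, had values of 2597, 2019 and 2633 with scrambled and 1511, 1382 and 1453 with *DUSP6* siRNA. All *DUSP6* siRNA libraries were lower, with a log2 fold change of -0.73 (SE 0.13, adjusted p = 0.00209 by limma). *PGK1*, the kinase that follows it and yields ATP, had values of 624, 464 and 708 with scrambled and 401, 396 and 389.9 with *DUSP6* siRNA. It too was lower without overlap and had a log2 fold change of -0.57 (SE 0.14, adjusted p = 0.0113 by limma), but under quantile normalization it was -0.32 and not called (adjusted p = 0.0763 by limma).

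The phosphoglycerate mutase *PGAM1* and the enolases *ENO1* and *ENO2* lie between *PGK1* and *PKM* in the pathway, and none of them was called. *PGAM1* had means of 279 ± 41.4 and 268 ± 9.37 (SD, n = 3 each), a log2 fold change of -0.05 with a 95% interval of -0.31 to 0.21. *ENO1* was at -0.15 (-0.41 to 0.10). *ENO2*, the neuronal enolase, was at 0.06 (-0.30 to 0.43) and was called higher, at 0.27, only without scrambled siRNA replicate 3 (adjusted p = 0.0268 by limma), while without replicate 2 it was at -0.07. Neighbouring steps of the pathway thus had unequal values, with *PGK1* and *PKM* lower and the genes of the steps between them not called, and whether the changes differ from step to step was not tested. *GAPDH*, *PGAM1*, *PKM*, *TPI1*, *ENO1*, *LDHA* and *RPE* have 65, 13, 5, 4, 4, 6 and 6 named pseudogenes in RefSeq. *LDHB* has 3, *ALDOA*, *PGK1*, *PDK1* and *PGD* have 2 each, and *HK2*, *RPIA* and *TALDO1* have 1 each. Reads could be split between these near copies, so the levels of these genes are uncertain.

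To show promoters of 2 glycolysis genes that fell, the 250 bases upstream of the transcription start of *PGK1* and *ALDOA* are printed from RefSeq on GRCh38, each on the plus strand and 5′ to 3′. The *PGK1* window is chrX:78103998-78104247 and the *ALDOA* window, at 1 of the 3 listed starts of the gene, is chr16:30065510-30065759. Capitals mark the core of the HIF binding motif, ACGTG or GCGTG, on either strand.
PGK1: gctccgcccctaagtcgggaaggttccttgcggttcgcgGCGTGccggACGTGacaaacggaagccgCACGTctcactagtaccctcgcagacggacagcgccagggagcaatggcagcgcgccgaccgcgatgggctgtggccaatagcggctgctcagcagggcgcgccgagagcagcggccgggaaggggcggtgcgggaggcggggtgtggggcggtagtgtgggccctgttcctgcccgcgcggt
ALDOA: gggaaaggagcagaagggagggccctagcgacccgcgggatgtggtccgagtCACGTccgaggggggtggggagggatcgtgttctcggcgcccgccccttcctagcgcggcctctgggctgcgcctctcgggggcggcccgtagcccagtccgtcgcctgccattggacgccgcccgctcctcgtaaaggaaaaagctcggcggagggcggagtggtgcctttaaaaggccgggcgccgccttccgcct
The *PGK1* window held 3 such cores and the *ALDOA* window 1. These 2 do not stand for all genes that fell, and the only listed window of *PKM*, which fell most, held 0. The core is short and common. It was in the windows of 21 of the 28 tested pathway genes with an entry (75.0%) and of 65.8% of all genes tested. By window, it was in 51.9% of the 52 windows of these pathway genes, in 55.9% of those of all genes tested and in 43.2% of all 35116 promoters. The E-box CACGTG, which MYC binds and which contains the core, was in 13.5% of the windows of these pathway genes, in 8.37% of those of all genes tested and in 6.34% of all promoters. The NRF2 motif TGACNNNGC was in 13.5%, 11.7% and 10.9%, in the same order. By gene, the E-box was in the windows of 25.0% of these pathway genes and 11.4% of all genes tested, and the NRF2 motif in 25.0% and 15.8%. A gene with more listed starts has more windows in which to match, so the shares by gene depend on the number of windows. A match describes letters in the window and not a bound site. *PFKFB2* was not among the entries used.

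*LDHA* encodes the lactate dehydrogenase subunit that favors lactate, and its values were 1324, 371 and 1167 in replicates 1 to 3 of scrambled siRNA and 522, 459 and 501 in those of *DUSP6* siRNA. Scrambled siRNA replicate 2 was the lowest library of all 6, while the other two controls were above every *DUSP6* siRNA library. With all libraries *LDHA* was not called (log2 fold change -0.75, 95% interval -1.65 to 0.15, adjusted p = 0.153 by limma), and without scrambled siRNA replicate 2 it fell by 1.33 on the log2 scale (adjusted p = 2.13e-04 by limma). Without scrambled siRNA replicate 1 or 3 the log2 fold change was -0.42 or -0.51 and not called (adjusted p = 0.446 and 0.350 by limma). In that library *LDHA* was 0.298 times the mean of the other two controls, and 0.132% of all genes tested had a ratio as low. The same library was the lowest control for 17 of the 29 pathway genes, against 35.5% of all genes tested. *LDHB*, which encodes the other main subunit, had 2, 0 and 0 reads with scrambled and 0, 0 and 1 reads with *DUSP6* siRNA. A count of 0 allows up to 3 reads in such a library, so nearly all reads of the pair were from *LDHA* in both groups.

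All 3 tested pyruvate dehydrogenase kinase genes fell, as did 24.7% of all genes tested. *PDK3*, on chromosome X from 24465286 to 24550466, had values of 34.0, 27.1 and 28.5 with scrambled and 14.9, 16.0 and 14.9 with *DUSP6* siRNA. The groups were well apart, with a log2 fold change of -0.92 (SE 0.11, adjusted p = 3.18e-04 by limma), next after *PKM* in size among these genes. *PDK2* had values of 44.6, 50.5 and 33.4 with scrambled and 26.1, 27.3 and 24.4 with *DUSP6* siRNA and fell by 0.69 on the log2 scale (SE 0.15, adjusted p = 0.00537 by limma). Exons of *SAMD14* cover 38.6% of those of *PDK2*, and the strand setting of the counting is not stated beyond the package's defaults, so the value of *PDK2* is uncertain.

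*PDK1* had values of 27.0, 22.5 and 26.2 with scrambled and 19.2, 19.7 and 21.5 with *DUSP6* siRNA. It was lower without overlap, but its call was close to the threshold, with a log2 fold change of -0.31 (SE 0.11, adjusted p = 0.0432 by limma). The call was lost when any library other than scrambled siRNA replicate 2 was left out, with adjusted p of up to 0.152. *PDK4*, the form induced by fasting, had at most 1 read in any library. Per length, *PDK1* made up 5.70% ± 0.825 of the family with scrambled and 8.0% ± 0.716 with *DUSP6* siRNA, without overlap. The MANE transcript of *PDK1* has 14072 bases, against 3364 for *PDK2* and 1741 for *PDK3*. The size of these shares thus depends on which transcripts the cells express, which was not tested. *PDK2* and *PDK3* together held nearly all the rest in both groups, and the shares of each overlapped.

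In the pentose phosphate pathway 1 of 6 genes rose, 1 fell and 4 were not called. The means of their summed values differed by -11.9%. The share of this sum in all normalized values was 0.134% with scrambled and 0.139% with *DUSP6* siRNA. Over all genes tested 19.7% rose and 24.7% fell. *PGLS*, the lactonase of the oxidative branch, had values of 27.3, 30.0 and 31.5 in replicates 1 to 3 of scrambled siRNA and 44.4, 44.9 and 38.4 in those of *DUSP6* siRNA. All *DUSP6* siRNA libraries were higher, with a log2 fold change of 0.51 (SE 0.10, adjusted p = 0.00442 by limma). *PGD*, the dehydrogenase of the next step and a source of NADPH, had values of 421, 416 and 376 with scrambled and 310, 285 and 335 with *DUSP6* siRNA. It was lower without overlap and fell by 0.38 on the log2 scale (SE 0.10, adjusted p = 0.0115 by limma). The *PGD* call was lost without *DUSP6* siRNA replicate 2 (adjusted p = 0.0554) and under quantile normalization (log2 fold change -0.11, adjusted p = 0.322).

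The genes of the non-oxidative branch, which recycles pentoses into glycolytic sugars, were not called. The transketolase *TKT* had values of 670, 666 and 737 with scrambled and 636, 547 and 625 with *DUSP6* siRNA, lower without overlap at a log2 fold change of -0.20 (95% interval -0.42 to 0.03, adjusted p = 0.133 by limma). The transaldolase *TALDO1* had means of 253 ± 22.8 and 255 ± 7.38 (SD, n = 3 each) and a log2 fold change of 0.01 (-0.20 to 0.22). The log2 ratio of *TKT* to *TALDO1* was lower by -0.21 without overlap (exact permutation p = 0.1, adjusted p = 0.2). The isomerase *RPIA* was at 0.09 (-0.17 to 0.36) and the epimerase *RPE* at -0.15 (-0.43 to 0.14). Exons of *KANSL1L* cover 23.8% of those of *RPE*, which also has 6 named pseudogenes, so its value is uncertain.

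**Figure D3:**
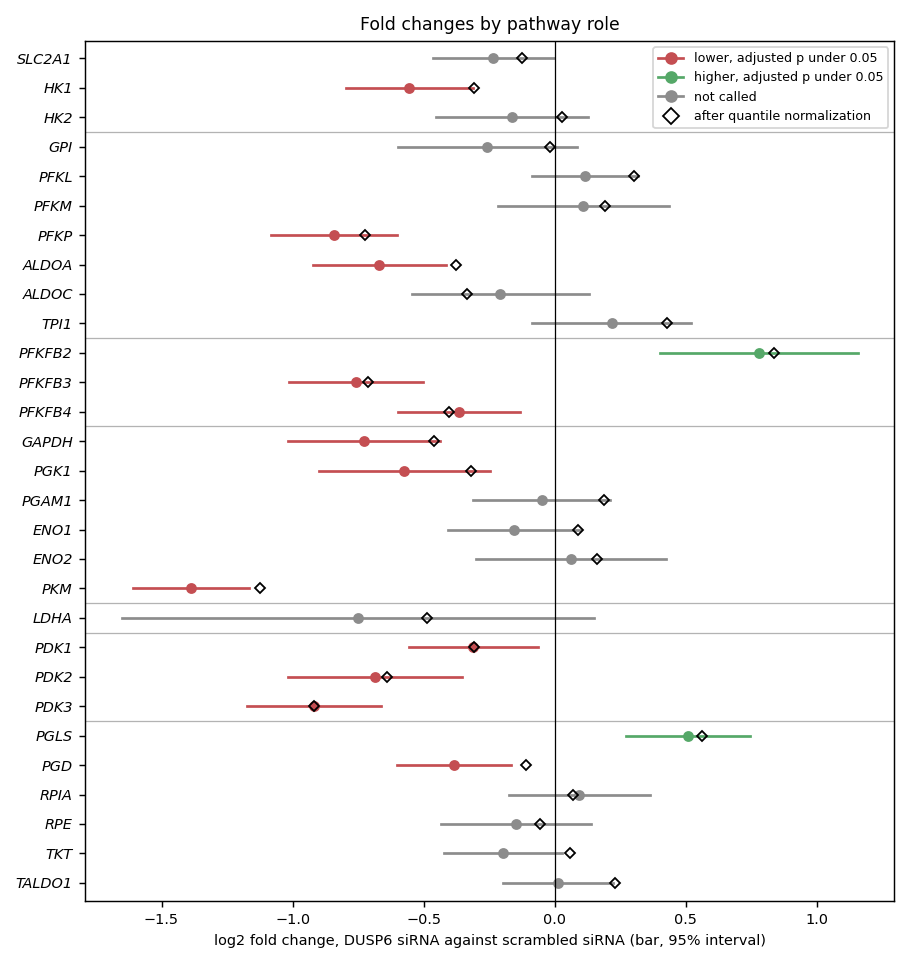
Log2 fold change of the 29 tested genes, with circles and bars for the limma estimate and its 95% interval and open diamonds for the estimate after quantile normalization. *PKM* lies farthest to the left at -1.39 and *PFKFB2* farthest to the right at 0.78, and the diamonds of abundant genes such as *ALDOA* and *TPI1* lie to the right of their circles.

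The balance of the calls depended on the scaling. After quantile normalization the calls of *PGK1* and *PGD* were lost, and *PFKL* (log2 fold change 0.30, adjusted p = 0.0234 by limma) and *TPI1* (0.43, adjusted p = 0.0222 by limma) were called higher. The scaling factors of the deposited values were 0.881 to 0.968 with scrambled and 1.08 to 1.09 with *DUSP6* siRNA, so the groups differed in this factor. A larger factor gives lower values. All values of a library summed to 1033110 to 1135124 with scrambled and 920927 to 924989 with *DUSP6* siRNA. The part of this difference in the fold changes was not tested. Calls of *PKM*, *PDK3*, *PFKP*, *PFKFB3*, *GAPDH*, *PDK2*, *ALDOA*, *HK1*, *PFKFB2* and *PGLS* kept their direction and threshold under each alternative and each omission of 1 library.

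*GAPDH* is often used to normalize PCR measurements, and it fell here. Divided by *GAPDH* in the same library, 16 of the other 28 pathway genes were higher without overlap in the *DUSP6* siRNA group, against 75.1% of all genes tested, and 1, *PKM*, was lower, against 4.04%. On this scale genes such as *TKT* and *SLC2A1*, whose normalized values were lower, came out higher. Among all genes tested 24.7% fell and 19.7% rose, and among those with a mean value of at least 200, 41.6% fell and 7.85% rose. Among 12 genes in common use as references, 7 fell, 2 rose and 3 were not called. Those that fell were *HPRT1* (log2 fold change -1.30), *ACTB* (-0.84), *GAPDH* (-0.73), *PPIA* (-0.63), *PGK1* (-0.57), *TBP* (-0.51) and *SDHA* (-0.51). *B2M* (2.46) and *GUSB* (0.98) rose, and *B2M* is known to be induced by interferon. The call of *GUSB* was lost without *DUSP6* siRNA replicate 2 (adjusted p = 0.0514 by limma). *YWHAZ*, *RPLP0* and *TFRC* were not called, with log2 fold changes of -0.20, 0.06 and 0.13. *RPLP0* varied widely within the controls (960 ± 531, SD, n = 3), and without scrambled siRNA replicate 2 both it (-0.47) and *YWHAZ* (-0.34) were called lower.

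**Figure D4:**
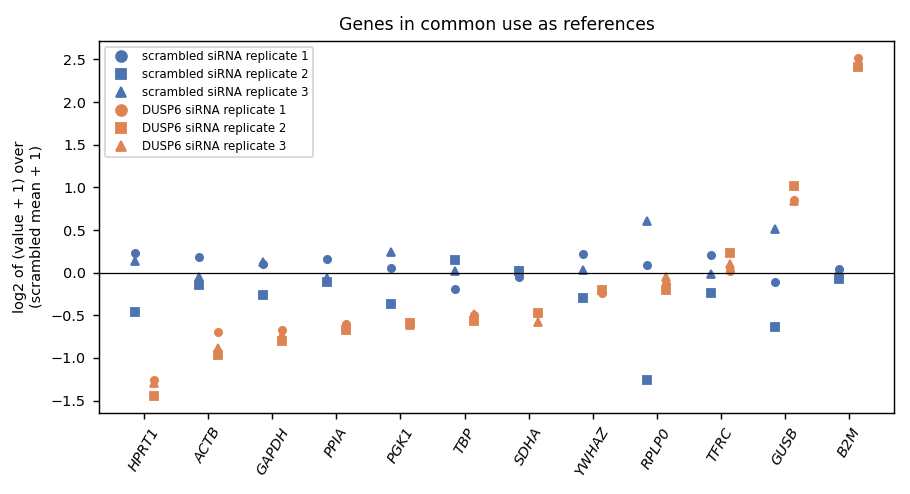
Genes in common use as references, as log2 of (value + 1) in each library over the scrambled siRNA mean plus 1, ordered by fold change. *GAPDH* and *PGK1* lie below 0 in all 3 *DUSP6* siRNA libraries, *B2M* lies far above it, and *RPLP0* is lowest in scrambled siRNA replicate 2.

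The surrounding pathway was read from further lists, chosen with earlier results of these data known. Their counts stand beside 24.7% lower and 19.7% higher among all genes tested, and no list was tested as a set. Of 18 tested genes among 27 further transporters, isozymes and enzymes of gluconeogenesis and the pentose phosphate pathway, 7 rose and 3 fell, and their median was 0.22. Those that changed most were in the transporter genes *SLC2A13* (1.21, adjusted p = 1.38e-04 by limma) and *SLC2A10* (-1.16, adjusted p = 8.68e-05) and in *ENO3*, the muscle enolase (0.89, adjusted p = 0.00272). Of 10 genes for the entry of pyruvate into mitochondria, 3 fell and 1 rose. These included the pyruvate dehydrogenase subunit *DLAT* (-0.82), the pyruvate carrier subunit *MPC2* (-0.52) and the dehydrogenase phosphatase subunit *PDPR* (0.42). Transcripts of *DLAT* and of the kinases that switch the complex off were thus both lower.

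The same shares over all genes, 24.7% lower and 19.7% higher, apply to the lists that follow. Of 14 tested genes of the glycogen, hexosamine and serine branches, 7 fell and 0 rose in limma, with a median of -0.26. They included *PGM1*, which links glycolysis to glycogen (-1.06), *PHGDH*, which opens serine synthesis (-0.84), and *UAP1* of the hexosamine branch (-0.74). Among 18 tested genes of the HIF pathway and its targets 5 fell and 2 rose, with a median of -0.02. *CA12* (-1.16) and *BNIP3L* (-0.89) fell and *ADM* (1.12) rose, and *HIF1A* itself was not called (-0.28, adjusted p = 0.0626 by limma). Of 10 tested genes of the NRF2 pathway 5 rose and 0 fell, with *HMOX1* at 1.06, *SLC7A11* at 0.77 and *GCLM* at 0.61. The groups overlapped for *HMOX1*, and 4 of the 6 omissions of 1 library ended its call, with limma adjusted p of up to 0.0754 (without scrambled siRNA replicate 1). *TXNIP*, a target of MondoA that restrains glucose uptake, rose by a log2 fold change of 0.33 (adjusted p = 0.00865 by limma), the only 1 of 4 tested genes of its list to be called.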

How the data were processed

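The members and lists were chosen with earlier results of these data known. The authors made TruSeq Stranded mRNA libraries, sequenced them on a NovaSeq instrument, used Rsubread to align reads to hg38 and, with its default settings, to count them over RefSeq gene models, and deposited 1 normalized signal value for each gene in each library. The submitters' processing notes also name bcl2fastq and edgeR. Each deposited signal value equalled some whole number of reads multiplied by a constant of its library (100% of values within 0.01), and these constants matched edgeR's TMM scaling of the recovered reads. Depth and composition were thus adjusted for before deposit. The paper's Methods do not name this normalization.

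From there, genes whose values averaged 1 or more across the 6 libraries were tested as log2(value + 1) by limma 3.58.1 under R 4.3.3, using eBayes with its trend option. Adjustment was by Benjamini-Hochberg over all genes tested, with calls at an adjusted p under 0.05. Counts of calls in a list carry no test of the list. Isoform ratios were compared by two-sided exact permutation tests. Of 12 ratios planned, 2 that involve *LDHB* or *PDK4* were not computed. The counting error of a library at 0 reads covers sampling only. limma and edgeR were tested on simulated data.

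Alternatives changed the pseudocount (0.1), the filter (none, or an average of 10 or more), the scaling (median of ratios, or quantile normalization) and the model (a replicate block, no eBayes trend, or the quasi-likelihood test of edgeR 4.0.16 applied to recovered reads), or omitted each library in turn. The text names all 31 genes, *DUSP6*, the reference genes and, of each further list, up to 3 called genes with the largest change. *HIF1A*, *CD68* and *COL1A1* were named in addition, after their values were seen. Some genes of the further lists are not reported here. Transcript lengths and exon overlaps were taken from GENCODE v44 on GRCh38 and promoters and pseudogene names from RefSeq tables on the same build.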

Additional observations from a re-analysis of the deposited data

How the results depend on the processing

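Beside the 29 main estimates for single genes of these pathways, 405 were made under the alternatives, of which 373 kept their direction and their side of the threshold, 14 lost the call, 7 gained it and 11 changed sign. Quantile normalization moved the number of pathway genes called higher from 2 to 4, and turned the sign of *HK2* (0.0284), *PGAM1* (0.19), *ENO1* (0.0883) and *TKT* (0.0577), none of which was called in either fit. A minimum mean value of 10 left 9562 genes tested, of which 1639 were higher, and excluded *ALDOC*. With 1 library left out at a time, 2 to 4 pathway genes were higher and 9 to 14 lower, 1574 to 3183 of all genes were higher, with the fewest without *DUSP6* siRNA replicate 2, and 2306 to 3581 were lower. The log2 fold change of *DUSP6* ranged from -2.22 to -1.76 in these fits. Signs turned in uncalled genes, with ranges of -0.0637 to 0.21 for *PFKM*, -0.16 to 0.0541 for *PGAM1*, -0.0699 to 0.27 for *ENO2* and -0.0278 to 0.0854 for *TALDO1*. *PDK1* also lost its call with no filter (adjusted p = 0.0605) and under edgeR (0.0558). The cause of these shifts was not tested.

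The libraries share replicate numbers between the groups, but same-numbered libraries did not deviate together (correlations of 0.005, 0.087 and -0.076), and only those numbered 2 correlated best with their own number. With a replicate block, 2 pathway genes were higher and 12 lower, 2495 and 3096 of all genes were called, *LDHA* gained a call (adjusted p = 0.0282) and *PDK1* lost it (0.0675), all by limma. Counting error limits *ALDOC*, with 146 to 382 reads per library, and *LDHB* and *PDK4* could not be compared at 0 to 2 reads per library.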
